A study of Mus musculus with 8 samples.

Results

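A set of 10 gene rows of the count table was examined because their names point to genes that kidney mesangial cells would not be thought to use, while their counts were high after AGO2 immunoprecipitation (AGO2-IP) and near 0 in total RNA. They were *Zfp488*, *Grk1*, *Olfr856-ps1*, *Olfr613*, *D5Ertd615e*, *Dcdc2c*, *A130077B15Rik*, *Vmn1r58*, *Gm12238* and *Cybrd1*, which is 10 of the 24639 rows. The rows were chosen by name after their AGO2-IP and total RNA counts were known, so the contrast between the assays is given below as a description, with no test. The comparison of genotypes was not a criterion of the choice and was tested. It rests on the same AGO2-IP counts, and earlier results of these data were known, so it is not independent of the choice.

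Primary mesangial cells (MMC), the contractile cells that hold the glomerular capillaries together, were cultured from the glomeruli of wild type (WT) mice and of miR-379 knockout (miR-379KO) mice. All cells were on the C57BL/6J background, were at a low passage and received no treatment. The miR-379KO mice carried a short deletion of miR-379 in every cell, made with CRISPR-Cas9 nickase in fertilized eggs and bred to homozygosity. Each genotype gave 2 total RNA libraries (A and B) and 2 AGO2-IP libraries (A and B), 8 in all. The AGO2-IP libraries came from UV cross-linked, sonicated lysates, and the paper calls their sequencing small RNA sequencing. It describes adapter ligation without size selection for its libraries of ligated hybrids and does not give this separately for AGO2-IP. The total RNA libraries came from a stranded poly(A) mRNA kit. The samples are described as independent, but the labels do not say that A and B came from separate animals, so p-values measure the spread between these samples, which may be technical. In cultured cell pools such as these, fewer cells of a type and less RNA per cell cannot be told apart.

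Total counts on genes were 17168230 to 22660743 in the total RNA libraries and 5587611 to 17095021 in the AGO2-IP libraries, and CPM below is a count per 1000000 of these gene counts. In AGO2-IP, the ribosomal RNA precursor row *Rn45s* took 72.2% to 80.5% of gene counts, and reads that the authors' counting placed outside genes made up 46.6% and 49.7% of uniquely placed reads in the WT libraries but 73.4% and 76.4% in the miR-379KO libraries. Reads with more than 1 place in the genome made up 46.5% to 54.4% of listed reads in AGO2-IP and 13.7% to 15.96% in total RNA. The *Mir379* row itself held 0 counts in each total RNA library, 0 and 4 counts in the WT AGO2-IP libraries and 1 and 0 in the miR-379KO AGO2-IP libraries, too few to check the genotype labels. Summed over 8 mesangial and contractile markers, total RNA held 16229 to 25007 CPM, against 232 to 506 CPM over 11 markers of podocytes, endothelium, tubule and leukocytes, of which only *Synpo* and *Lrp2* reached a mean of 1 CPM. The larger sum was carried by *Acta2*, *Tagln* and *Vim*, each at 3924 CPM or more, whereas *Itga8* and *Gata3* stayed below 4 CPM. The podocyte marker *Synpo*, at 205 to 504 CPM, was above the mesangial marker *Pdgfrb*, at 108 to 198 CPM, in every total RNA library. The purity of the cultures was not tested.

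AGO2 is the Argonaute protein that carries a microRNA and is led by it to matching stretches of other RNAs. What is recovered with it is a mixture of microRNAs, their target RNAs and whatever RNA sticks, and a count on a gene row says only that reads fell inside the exons annotated for that gene. A large part of mammalian transcripts, and of their untranslated regions (UTRs) above all, is made of pieces of transposable elements such as LINE-1 and the SINE B1, which occur in many copies in the mouse genome and can be transcribed on either strand.

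Only 6 of the 10 rows are protein-coding genes in RefSeq on GRCm38.p6. *Zfp488* (chr14, 33967070 to 33979034, minus strand) encodes a zinc finger repressor of the oligodendrocyte lineage, *Grk1* (chr8, 13405081 to 13421951, plus) the rhodopsin kinase of photoreceptors, *Olfr613* (chr7, 103550368 to 103555504, plus) an odorant receptor and *Vmn1r58* (chr7, 5408887 to 5413145, minus) a pheromone receptor. *Dcdc2c* (chr12, 28437795 to 28552942, minus) encodes a doublecortin domain protein, and *Cybrd1* (chr2, 71118054 to 71142926, plus) the ferric reductase of the duodenum. *Olfr856-ps1* (chr9, 19657039 to 19658680, minus) is a transcribed pseudogene of an odorant receptor. *D5Ertd615e* (chr5, 45009171 to 45424400, minus) and *A130077B15Rik* (chr10, 122565023 to 122569891, minus) are long non-coding RNAs, and *Gm12238* (chr11, 55482706 to 55482829, plus) is a small nucleolar RNA (snoRNA) gene. The common label of coding genes therefore did not hold for 4 of them.

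No annotated small RNA gene overlapped any of the other 9 rows. *Gm12238* lies in an intron of *G3bp1*, a stress granule protein gene on the same strand, and *D5Ertd615e* overlaps the long non-coding RNA *Gm46912* on the opposite strand without touching its exons. Instead, 7 of the 10 rows shared one stretch of sequence. Over stretches of at least 100 bases with at least 80% identity, 20 of the 21 pairs among *Zfp488*, *Grk1*, *Olfr856-ps1*, *Olfr613*, *D5Ertd615e*, *A130077B15Rik* and *Vmn1r58* matched, the exception being *Grk1* with *Olfr613*. The shared stretch reads as the 3′ end of a LINE-1 element, an identification from background knowledge, since no repeat library was used.

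The first 5 of these rows carry the element in one direction, and *A130077B15Rik* and *Vmn1r58* carry it in the other. The 10 pairs on the same strand aligned over 356 to 1018 bases with 89.6% to 98.9% identity, and the 10 pairs on opposite strands over 343 to 935 bases with 82.8% to 93.2% identity. *Grk1* and *Olfr856-ps1*, on different chromosomes, were 98.9% identical over 356 bases. *Zfp488* and *Olfr613* were 96.4% identical over 531 bases. A 30-base window of the element is shown for all 7 rows because it is the sequence that these unrelated names have in common. It is written 5′ to 3′ on the transcript strand for the first 5 rows and as the reverse complement of the transcript for the last 2, and capitals mark bases that differ from *Zfp488*, taken as the reference:
Zfp488: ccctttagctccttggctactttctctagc
Grk1: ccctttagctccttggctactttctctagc
Olfr856-ps1: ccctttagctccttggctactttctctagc
Olfr613: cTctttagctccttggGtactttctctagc
D5Ertd615e: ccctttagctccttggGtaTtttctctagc
A130077B15Rik: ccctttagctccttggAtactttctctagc
Vmn1r58: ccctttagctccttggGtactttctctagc

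The window lies in the 3′ UTR of *Zfp488* (chr14:33967988-33968017), *Grk1* (chr8:13417202-13417231) and *Vmn1r58* (chr7:5409160-5409189) and in the 5′ UTR of *Olfr613* (chr7:103550379-103550408). In the non-coding transcripts it lies in exons of *Olfr856-ps1* (chr9:19657851-19657880), *D5Ertd615e* (chr5:45010516-45010545) and *A130077B15Rik* (chr10:122565320-122565349). *Zfp488*, *Grk1* and *Olfr856-ps1* were identical over its 30 bases, and no row differed from *Zfp488* at more than 2 positions.

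Of the remaining 3 rows, *Cybrd1* carries a B1 element in its 3′ UTR and *Dcdc2c* another repeat in its last exon, nearly all of it 3′ UTR. The B1 of *Cybrd1* matched an annotated B1_Mus2 element over 138 bases with 92.0% identity. *D5Ertd615e* holds a second B1 beside its LINE-1 piece, at 89.6% identity over 134 bases. A window of 30 bases from each is shown with the annotated element because it is the only sequence that *Cybrd1* shares with another of the rows, with capitals marking bases that differ from the most common base:
Cybrd1: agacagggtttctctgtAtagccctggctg
D5Ertd615e: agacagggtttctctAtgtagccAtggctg
B1_Mus2: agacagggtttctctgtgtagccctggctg

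These windows are at chr2:71139064-71139093 in the *Cybrd1* 3′ UTR, at chr5:45010986-45011015 (minus strand) in a *D5Ertd615e* exon and at chr7:103823703-103823732 in the annotated element. *Gm12238* stood alone in holding no repeat. Its 124 bases are printed in full because it is the only row that is itself a small RNA, with the ACA that stands 3 bases before its end in capitals, a mark of the H/ACA class of snoRNA that guides the conversion of uridine to pseudouridine:
Gm12238: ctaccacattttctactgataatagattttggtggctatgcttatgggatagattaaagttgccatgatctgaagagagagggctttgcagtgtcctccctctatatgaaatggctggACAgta

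It is at chr11:55482706-55482829. Of 1415 other snoRNA genes in the same annotation, 257 (18.2%) have ACA at that place, so the match is a description and assigns no class by itself.

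The number of copies of these stretches in the genome was counted with matches of at least 80% identity over at least 100 bases. The most repeated base of the LINE-1 piece was covered by 106754 matches for *Zfp488*, 102366 for *Grk1*, 102314 for *Olfr856-ps1*, 84587 for *Olfr613*, 112924 for *A130077B15Rik* and 97863 for *Vmn1r58*. The B1 pieces reached 150704 matches in *Cybrd1* and 137894 in *D5Ertd615e*, the *Dcdc2c* repeat 3767, and *Gm12238* 2. Bases with at least 1000 matches made up 65.9% of the exons of *A130077B15Rik* and 40.0% of those of *Olfr856-ps1*, against 4.28% in *Cybrd1* and 6.93% in *Grk1*. The repeated stretch was a single block of 956 bases in the *Zfp488* 3′ UTR and of 531 bases at the start of the *Olfr613* 5′ UTR.

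**Figure D1:**
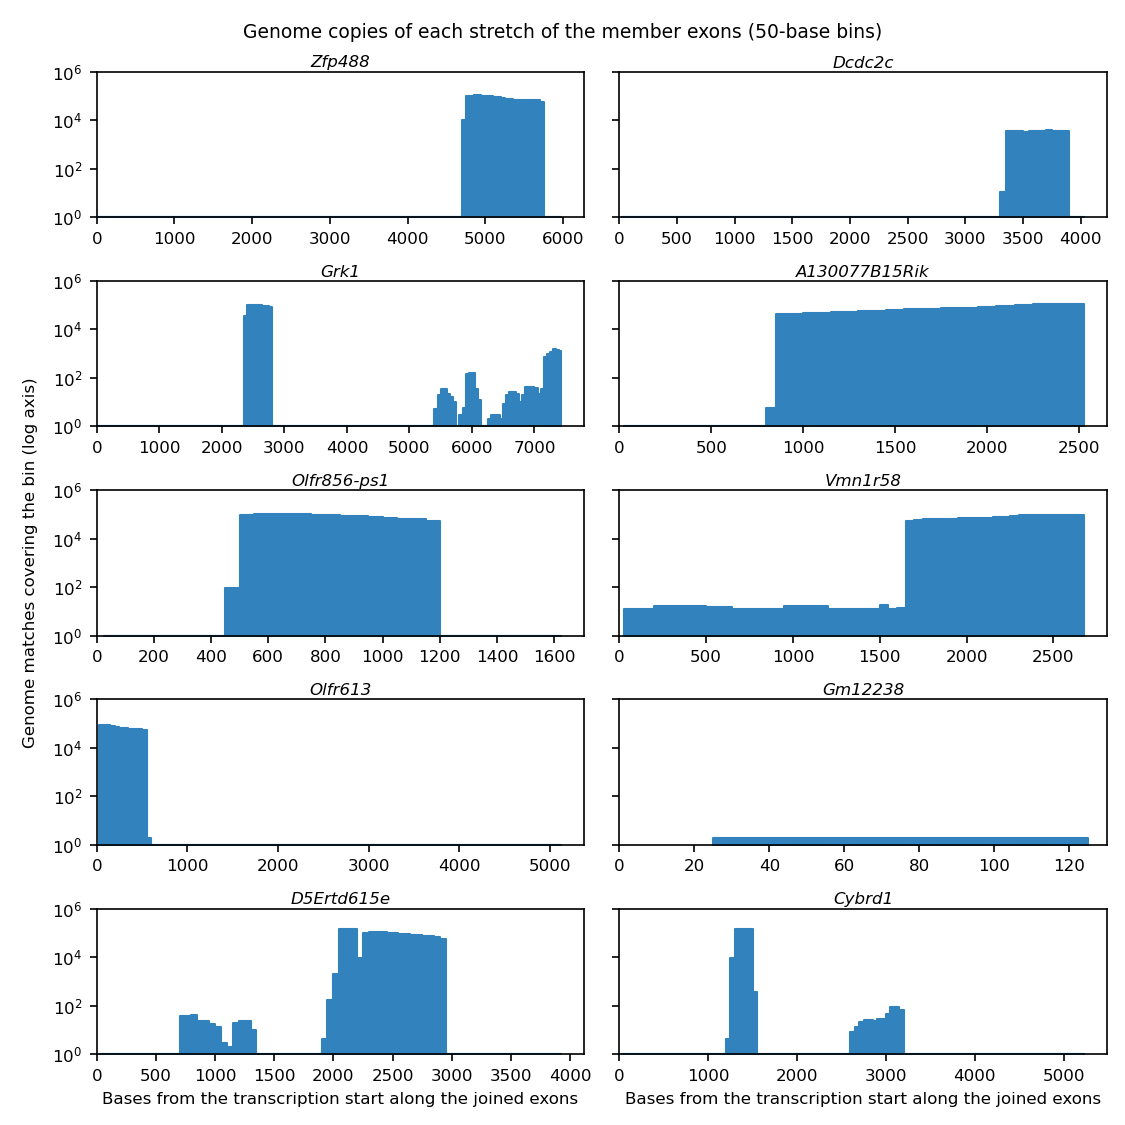
Number of genome matches (at least 80% identity over at least 100 bases, log axis) covering each 50-base bin of the joined exons, by distance from the transcription start, in 1 panel per row. The highest blocks, up to 150704 matches, are the LINE-1 and B1 pieces, the *Dcdc2c* block reaches 3767 matches, and *Gm12238* reaches 2.

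Soft-masked (repeat) bases made up a median of 26.7% of the exons of the 10 rows, against 8.47% over the 24323 rows with an annotation match. At least 20% of the exon bases were masked in 8 of the 10 rows and in 9.97% of all rows. The LINE-1 piece was searched over all rows with the 999 bases of it in *A130077B15Rik*. It was found in 204 rows in all (0.839%), 7 of them among the 10. The others of these 7 had already matched *A130077B15Rik*, so finding them again followed from the choice of the searched sequence. Their number is therefore not compared with the share of all rows. The rule that chose the rows used their levels and not their sequence, but it was applied with earlier results of these data known, and no chance is attached to these counts.

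Matches to annotated small and structural RNAs were short. At 90% identity over at least 30 bases on the same strand, 4 of the 10 rows (*Zfp488*, *Olfr613*, *A130077B15Rik* and *Cybrd1*) matched a microRNA hairpin or a small nuclear RNA, against 15.5% of 23066 rows. The search over all rows was stricter for short matches (a longer exact run, a larger database), so the shares are not directly comparable. None of the 10 matched at 95% over at least 50 bases, and no match of the 10 under these settings was to a ribosomal RNA, a transfer RNA or a snoRNA. The *Mir3472* hairpin matched *Zfp488* over 37 bases with no mismatch, inside the LINE-1 piece. Its mature microRNA is shown because it lies within the LINE-1 piece of 3 of the 7 rows, with the seed (bases 2 to 8) in capitals:
mmu-miR-3472: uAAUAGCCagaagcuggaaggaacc

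The 25 bases of miR-3472, which RefSeq places on chromosome X, were found with 1 mismatch on the transcript strand of *A130077B15Rik* and with 2 mismatches on that of *Vmn1r58*. In *Zfp488* they were found with 1 mismatch on the opposite strand. The other 4 rows with the LINE-1 piece did not hold the microRNA sequence, with 7 mismatches in *Olfr613* and 10 in *Grk1*, *Olfr856-ps1* and *D5Ertd615e* at best. The 2 *Mir3472* rows of the table held 0 counts in total RNA and 0 or 1 count in each AGO2-IP library. *Cybrd1* matched the *Mir5098* hairpin over 37 bases at 97.3% identity and the *Mir8111* hairpin over 58 bases at 93.1%, and the rows of these genes held between 0 and 5 counts in each AGO2-IP library. Reads with more than 1 place in the genome were not counted on any row, so low counts on these microRNA rows do not give the microRNA levels. Whether reads of the 10 rows fell on the repeated stretches could not be read from counts per gene and was not tested.

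*Zfp488* had the highest AGO2-IP counts. The WT AGO2-IP libraries A and B held 3547 and 2332 counts and the miR-379KO AGO2-IP libraries 7562 and 9139. Total RNA held 38 and 36 counts in the WT libraries and 28 and 25 counts in the miR-379KO libraries. Its AGO2-IP level was 225 ± 25.3 CPM (SD, n = 2) for WT and 1395 ± 340 CPM for miR-379KO. Both miR-379KO libraries lay above both WT libraries, as was so by CPM for 71.6% of the 13505 rows tested. By mean AGO2-IP CPM *Zfp488* stood 18th of all rows. It stood first of the 10670 protein-gene and pseudogene rows whose total RNA counts were no higher than those of the 10 rows. The rows were chosen for such levels, so this rank is a description.

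The other rows of receptor and receptor kinase genes followed the same order of libraries. *Olfr856-ps1* held 1697 and 960 counts in the WT AGO2-IP libraries, against 3235 and 3753 counts for miR-379KO, and 12 to 18 counts in every total RNA library. *Olfr613* held 1084 and 787 counts in the WT AGO2-IP libraries, against 2520 and 3216 counts for miR-379KO, and 14 to 28 in total RNA. Both odorant receptor rows thus had their AGO2-IP levels (99.7 ± 0.618 and 72.8 ± 13.2 CPM in WT) far above their total RNA levels (0.869 ± 0.254 and 1.13 ± 0.461 CPM in WT). *Vmn1r58* held 256 and 200 counts in the WT AGO2-IP libraries, against 621 and 716 counts for miR-379KO, with 51 to 61 counts in total RNA. *Grk1* held 360 and 223 counts in the WT AGO2-IP libraries, against 735 and 876 counts for miR-379KO, and 0 to 4 counts in total RNA. In CPM, no miR-379KO AGO2-IP library of these rows was as low as a WT one. The same held for 71.6% of all rows tested.

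Among the rows with other functions, *Dcdc2c* held 181 and 111 counts in the WT AGO2-IP libraries, against 303 and 380 counts for miR-379KO, and 10 to 23 in total RNA. *Cybrd1* was the lowest row, with 96 and 60 counts in the WT AGO2-IP libraries, against 151 and 162 counts for miR-379KO, and 2 to 4 in total RNA. After scaling to CPM, the miR-379KO libraries lay above the WT libraries for both, as for 71.6% of all rows tested.

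Of the non-coding rows, *A130077B15Rik* held 1267 and 902 counts in the WT AGO2-IP libraries, against 3103 and 3532 counts for miR-379KO, and *D5Ertd615e* 194 and 118 for WT, against 351 and 444 for miR-379KO. *A130077B15Rik* was also the highest of the 10 in total RNA, with 69 to 96 counts per library, and *D5Ertd615e* held 7 to 18. *Gm12238* differed from the rest in counts: 468 and 204 in the WT AGO2-IP libraries, against 353 and 384 for miR-379KO, with 0 to 2 in total RNA. Its 2 WT libraries alone spanned the range of the miR-379KO counts. In CPM the genotypes were apart, at 24.3 ± 4.31 CPM for WT and 61.3 ± 10.5 CPM for miR-379KO. Both miR-379KO libraries lay above both WT libraries, as for 71.6% of all rows tested.

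The mean AGO2-IP CPM was 21.3 times the mean total RNA CPM for *Vmn1r58*, 74.4 times for *A130077B15Rik*, 468 times for *Zfp488*, 678 times for *Grk1* and 744 times for *Gm12238*. These ratios describe what the rows were chosen for. *Vmn1r58* and *A130077B15Rik* had measurable total RNA, 3.36 ± 0.214 and 4.81 ± 1.11 CPM in WT, so that the description as rows seen only in AGO2-IP did not hold for them. The ratios of *Grk1*, *Gm12238* and *Cybrd1* rest on at most 4 counts per total RNA library. Since the paper describes the 2 assays with different library methods, and names a poly(A) mRNA kit for total RNA, the ratio is not a measure of binding to AGO2.

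**Figure D2:**
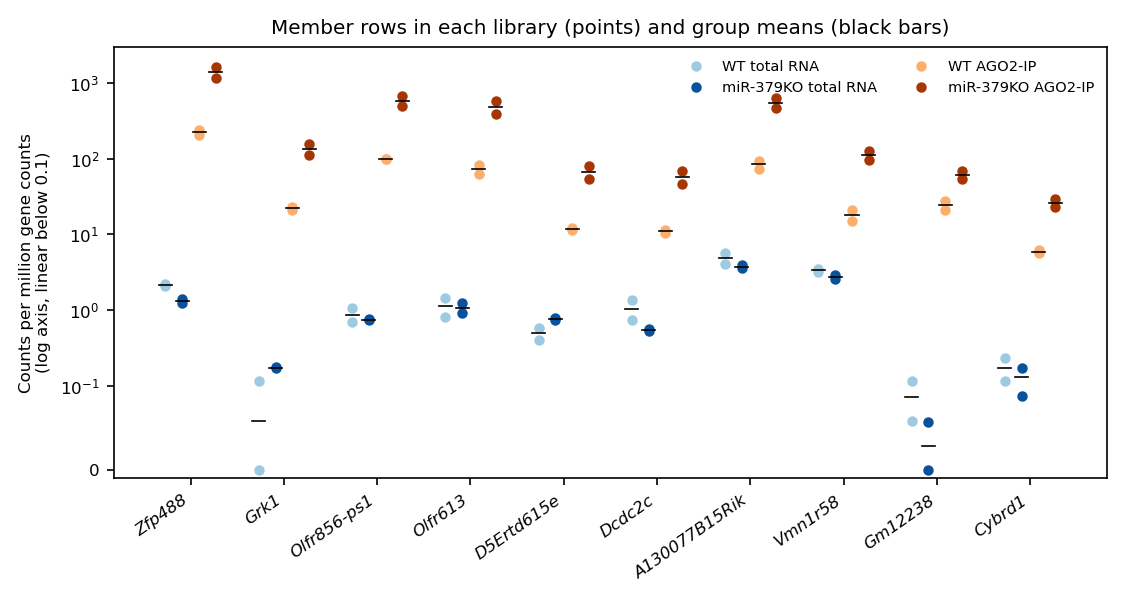
CPM (log axis, linear below 0.1) of the 10 rows in each of the 8 libraries, with a black bar at each group mean (n = 2). The AGO2-IP points lie above the total RNA points for every row, from 5.62 CPM for *Cybrd1* in WT AGO2-IP A to 1636 CPM for *Zfp488* in miR-379KO AGO2-IP B.

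The comparison of miR-379KO with WT in AGO2-IP asked which RNAs were recovered differently with AGO2 when miR-379 was missing. With edgeR's quasi-likelihood test, 9 of the 10 rows rose in miR-379KO at an adjusted p under 0.05 and none fell, against 21.4% of the 13505 rows tested that rose. *Olfr613* rose by 1.84 ± 0.30 (log2 fold change ± SE, adjusted p = 0.000333 in edgeR) and *A130077B15Rik* by 1.84 ± 0.30. *Vmn1r58* rose by 1.77 ± 0.25, with the smallest adjusted p of the 10 (0.000144 in edgeR). *Zfp488* rose by 1.74 ± 0.33, *Grk1* by 1.70 ± 0.27, *Olfr856-ps1* by 1.63 ± 0.31 and *D5Ertd615e* by 1.58 ± 0.25. *Dcdc2c* at 1.45 ± 0.25 and *Cybrd1* at 1.22 ± 0.23 had the smallest changes among the called rows, and the 9 adjusted p-values in edgeR were at most 0.000910. *Gm12238* was at 0.38 ± 0.28 (adjusted p = 0.313 in edgeR) and did not pass.

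The median log2 fold change of the 10 rows was 1.66, against −0.01 over all rows tested. This shift was not particular to them. Among the 3565 other tested rows whose total RNA counts were, like theirs, never above 96, 2507 (70.3%) rose, 17 fell, and the median was 1.62. Most of the 3565 had low AGO2-IP counts and could enter the test through the miR-379KO libraries alone. The filter thus favoured a rise, and their share is a description. Only 114 of the 3565 had a mean of at least 50 AGO2-IP counts. These 114 had a median of 1.39, with 66 (57.9%) higher and 5 lower. The share of reads outside genes moved with the genotype in the same direction, and its part in the result was not tested.

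**Figure D3:**
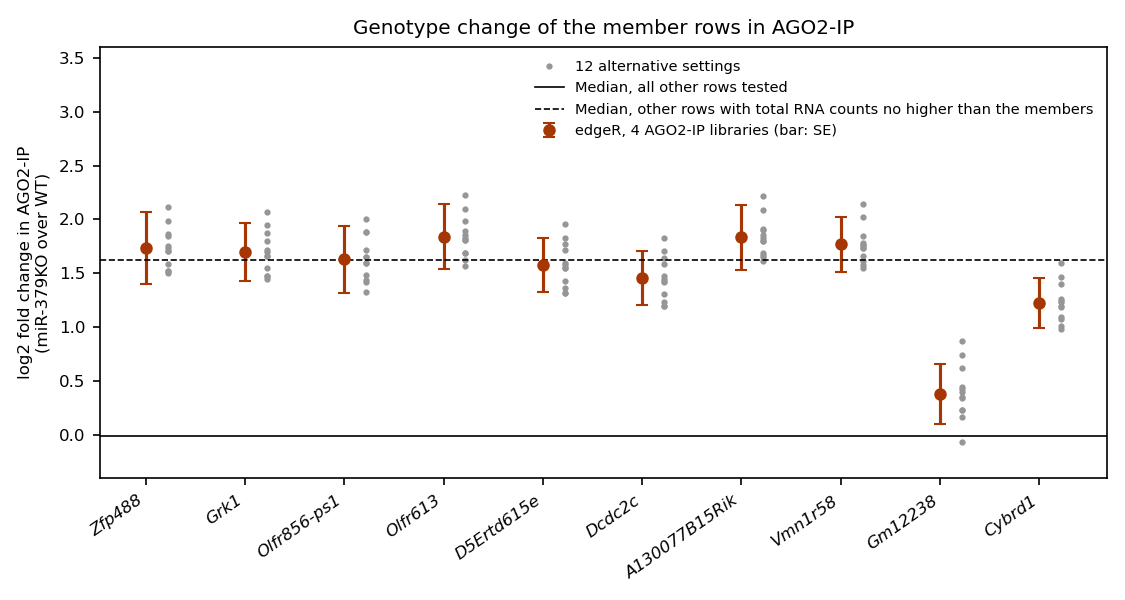
log2 fold change in AGO2-IP (miR-379KO over WT) of each row, with the standard error of the edgeR fit (points with bars) and the values under 12 alternative settings (grey points). The 9 rows other than *Gm12238* lie near the dashed line at 1.62, the median of other rows with total RNA counts no higher than theirs, and above the solid line, the median of all other rows at −0.01. Most rows behind the dashed line had low AGO2-IP counts, where the filter favours a rise.

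The size of the genotype ratio depended on what the counts were divided by. In CPM, the mean of the miR-379KO libraries was 4.38 to 6.60 times the WT mean for the 9 rows other than *Gm12238*. Without *Rn45s* and *Lars2* in the denominator it was 2.94 to 4.50 times, and per listed read 1.88 to 2.82 times. Per read outside genes it was 1.35 to 2.03 times. *Zfp488*, for example, stood at 238 and 246 counts per 1000000 reads outside genes for WT AGO2-IP and at 417 and 504 for miR-379KO AGO2-IP.

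On that last scale both miR-379KO libraries still lay above both WT libraries for 9 of the 10 rows, which was so for 19.2% of all rows tested. *Gm12238* was the exception, with a ratio of 0.768 and overlapping genotypes. Both miR-379KO libraries lay above both WT libraries for all 10 rows in CPM (71.6% of all rows tested) and without *Rn45s* and *Lars2* in the denominator (49.1%). Per listed read this held for 9 of the 10, with *Gm12238* again the exception, and for 26.3% of all rows tested.

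**Figure D4:**
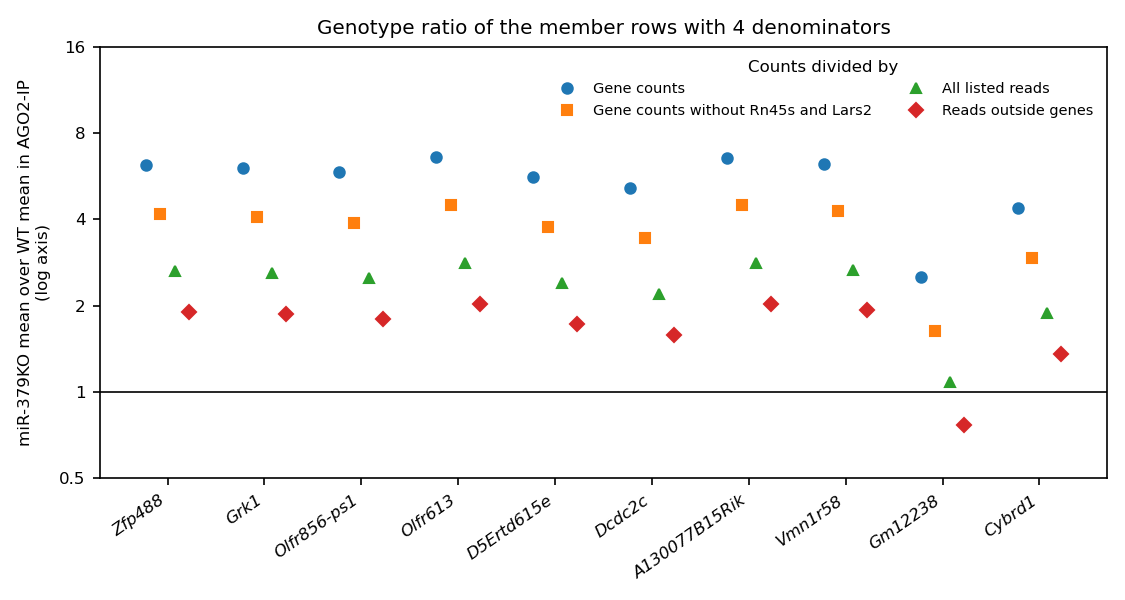
Mean of the 2 miR-379KO AGO2-IP libraries over the mean of the 2 WT AGO2-IP libraries (log axis) for each row, with counts divided by gene counts, by gene counts without *Rn45s* and *Lars2*, by all listed reads or by reads outside genes. For *Zfp488* the ratio falls from 6.19 to 4.18, 2.65 and 1.90 in that order, and *Gm12238* passes from 2.52 to 0.768.

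The rows kept nearly fixed proportions to one another across the AGO2-IP libraries. *Grk1* held 10.1% and 9.56% of the *Zfp488* count in the WT libraries, against 9.72% and 9.59% in the miR-379KO libraries, a coefficient of variation (CV) of 2.79% over the 4 libraries. *Olfr613* held 30.6% and 33.7% of it for WT, against 33.3% and 35.2% for miR-379KO. *A130077B15Rik*, which has the element in the other direction, held 35.7% and 38.7% for WT, against 41.0% and 38.6% for miR-379KO. Over the 6 rows that share the LINE-1 piece with *Zfp488*, the CV was at most 7.37%. It was 11.4% for *Dcdc2c*, 19.8% for *Cybrd1* and 54.4% for *Gm12238*. Counting alone would give a CV of 2.81% to 7.01% for the 6 LINE-1 rows. It would give 7.32% for *Dcdc2c*, 10.1% for *Cybrd1* and 5.79% for *Gm12238*, so part of the contrast goes with count depth. The 2.79% of *Grk1* lay below its counting value of 5.18%.

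The proportion of *Dcdc2c* and *Cybrd1* to *Zfp488* was lower in miR-379KO, at 0.828 and 0.714 times the WT proportion. It was 0.902 to 1.07 times for the 6 LINE-1 rows. *Gm12238* held 13.2% and 8.75% of the *Zfp488* count for WT, against 4.67% and 4.20% for miR-379KO. With 2 libraries per genotype these proportions are descriptions.

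Of 2523 other rows with a mean of at least 100 AGO2-IP counts, the median CV of the ratio to *Zfp488* was 78.2%, and 30 rows (1.19%) were at or below the 19.8% of *Cybrd1*. The LINE-1 piece was present in 12 of these 30 rows and in 29 (1.15%) of the 2523, so that 12 of 29 rows with the piece had such a steady ratio. Total RNA counts never above 96 were found in 17 of the 30 rows and in 51 (2.02%) of the 2523. Thus 17 of the 51 rows with such low total RNA had a steady ratio. Both traits were present in 6 of the 30. Rows that share a low count, a scaling or a library also move together, and these shares carry no test.

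**Figure D5:**
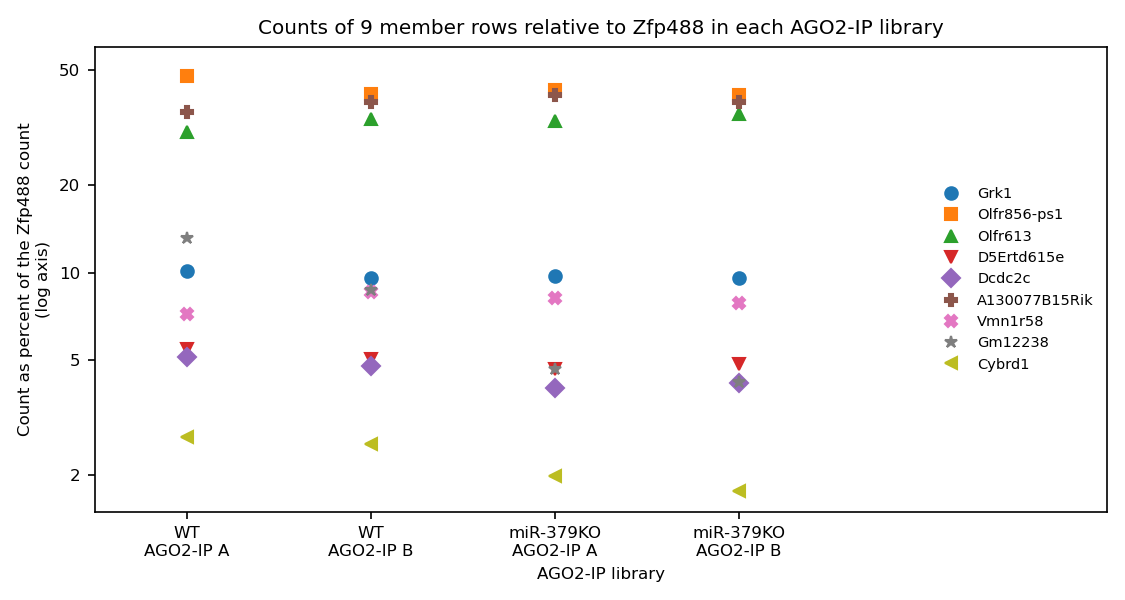
Count of each of the other 9 rows as a percent of the *Zfp488* count (log axis) in each of the 4 AGO2-IP libraries. The 6 rows with the LINE-1 piece keep the same order in all 4 libraries, whereas *Gm12238* moves from 13.2% in WT AGO2-IP A to 4.20% in miR-379KO AGO2-IP B.

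Other rows with the LINE-1 piece were set beside the 7. Of 108 further rows that carry it in the direction of *Zfp488*, 92 were tested in AGO2-IP and 40 (43.5%) rose, with a median log2 fold change of 0.68. Of 73 that carry it in the direction of *A130077B15Rik*, 63 were tested and 22 (34.9%) rose, with a median of 0.47. Of 16 rows with the piece in both directions, 14 were tested and 12 (85.7%) rose, with a median of 1.72. Rows with the piece in neither direction had 20.97% higher and a median of −0.02. Among rows with a mean under 10 counts in total RNA, 20 of 21 tested rows with the *Zfp488* direction rose (median 1.95), as did 5 of 7 with the *A130077B15Rik* direction (median 2.20). Of rows this low without the piece, 1988 of 2492 (79.8%) were higher, with a median of 1.79. Rows this low enter the test mostly through the libraries where they are higher, so these shares and medians are descriptions. Most rows with the piece were not prominent in AGO2-IP, since 19 of the 108 and 12 of the 73 reached 10 CPM. Most rows without it were not prominent either, as 2908 of the 24116 with the piece in neither direction reached 10 CPM.

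By level, 7 of the 14 highest rows with the piece were among the 10 studied. That standing follows from their choice by AGO2-IP level and from the choice of the searched sequence. The highest of all was *Mrgpra6*, a sensory neuron receptor gene, at a mean of 3981 CPM in AGO2-IP, which had up to 935 counts in total RNA. It rose by 1.87 on the log2 scale in miR-379KO. *Tyms*, the thymidylate synthase gene, at 212 CPM, and *Cenpc1*, a centromere protein gene, at 135 CPM, had up to 686 and 652 total RNA counts. These 3 rows were chosen after their values were seen.

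The nearest rows outside the 10, by AGO2-IP level among protein-gene and pseudogene rows with equally low total RNA, were *H2-Q4*, *Ap1s3*, *Ttn*, *A430078G23Rik* and *Gm3002*. *H2-Q4*, a class I histocompatibility gene, had 420 and 283 counts in the WT AGO2-IP libraries, against 965 and 1107 counts for miR-379KO. It carries 270 aligned bases of the LINE-1 piece and rose by 1.78 ± 0.27. *Ap1s3*, an adaptor protein subunit gene with 290 aligned bases, had 471 and 254 counts in the WT AGO2-IP libraries, against 845 and 951 counts for miR-379KO, and rose by 1.54 ± 0.28. *Ttn*, the giant sarcomere protein gene, rose by 1.94 ± 0.25 from 129 and 75 counts in WT to 327 and 344 in miR-379KO. *A430078G23Rik* rose by 1.79 ± 0.25 and the pseudogene *Gm3002*, whose exons are 91.9% repeat-masked, by 1.51 ± 0.23. *H2-Q4*, at 99.9 CPM, and *Ap1s3*, at 88.3 CPM, had higher AGO2-IP levels than *Grk1* at 78.3 CPM.

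In total RNA, 7 of the 10 rows had enough counts to be tested and none was called, as with 0% of the 12321 rows tested. With edgeR 91 of these rows had an unadjusted p under 0.05, and DESeq2 called none either. *Zfp488* was at −0.66 ± 0.46 and *Dcdc2c* at −0.90 ± 0.61 on the log2 scale, *D5Ertd615e* at 0.67 ± 0.59, and the other 4 lay between −0.33 and −0.06. *Grk1*, *Gm12238* and *Cybrd1* had at most 4 counts in any total RNA library and were not tested. The standard errors of the 7 rows in total RNA, at 7 to 96 counts per library, were 0.37 to 0.61, so small changes were not detectable at this depth.

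The difference between the AGO2-IP change and the total RNA change was tested as an interaction over 17429 rows. No row passed with edgeR, with 2733 at an unadjusted p under 0.05. For *Zfp488* the difference was 2.18 ± 0.50 (adjusted p = 0.229 in edgeR), for *Dcdc2c* 2.12 ± 0.49, for *A130077B15Rik* 1.93 ± 0.43 and for *Vmn1r58* 1.82 ± 0.37 (adjusted p = 0.228 in edgeR). It was 0.70 ± 0.52 for *D5Ertd615e*. *Grk1*, at 0.05 ± 0.43, entered this fit through its AGO2-IP counts and had only 0 to 4 counts per total RNA library, so its value says little. By CPM, both miR-379KO libraries lay above both WT libraries in AGO2-IP and below both in total RNA for 5 of the 10 rows and for 9.25% of the 13505 rows tested in AGO2-IP. For *Gm12238*, 1 of the 5, the nearest total RNA libraries of the genotypes held 1 count each.

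Genes that work with the named ones are described here. The 10 rows were chosen for high AGO2-IP counts, so gaps in level between them and these genes follow from the choice. Of 13 other phototransduction rows, partners of *Grk1*, only 3 had enough counts to be tested in AGO2-IP. These 3 reached 10 counts only in the miR-379KO libraries, so that the filter favoured a rise, and their calls are not used here. The highest, *Pde6a*, a subunit of the rod phosphodiesterase, was at 1.17 CPM against 78.3 CPM for *Grk1*. Within the G protein-coupled receptor kinase family, *Grk4* rose by 1.61 ± 0.26, *Grk6* fell by 0.72 ± 0.24 and *Adrbk1* was at −0.27 ± 0.24. Of 10 oligodendrocyte and myelin rows, where *Zfp488* is known to act, 4 were tested and 2 rose, among them *Myrf*, a myelin gene regulator, by 1.58 ± 0.52. *Myrf* held 11 and 2 counts in the WT AGO2-IP libraries, against 17 and 17 for miR-379KO. The filter favoured a rise at such counts, so the calls in this list are not used here either. The most abundant row of the list, *Cnp*, an enzyme of myelin, was at 1.85 CPM against 810 CPM for *Zfp488*.

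Around *Cybrd1*, 11 of 13 cytochrome b561 and iron handling rows were tested, of which 2 rose and 1 fell. The ferritin rows *Ftl1* (−0.57 ± 0.28) and *Fth1* (−0.18 ± 0.23) and the transferrin receptor *Tfrc* (−0.16 ± 0.23) did not pass. In the doublecortin domain family, 5 of 8 rows beside *Dcdc2c* were tested and 3 rose, among them the photoreceptor microtubule gene *Rp1* by 2.43 ± 0.41, whereas the neuronal kinase *Dclk1* was at 0.25 ± 0.22. *Rp1* held 5 and 13 counts in the WT AGO2-IP libraries, against 43 and 43 for miR-379KO. The filter favoured a rise at such counts, so this call is a description.

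The other chemoreceptor rows were near 0. Of 1123 other olfactory receptor rows, 1098 held 0 counts in all 4 total RNA libraries, 33 could be tested in AGO2-IP and 31 rose, with the highest, *Olfr1033*, at 2.93 CPM. *Olfr613* and *Olfr856-ps1* were at 277 and 341 CPM. Of 210 other vomeronasal type 1 receptor rows, 10 were tested and all 10 rose, the highest being *Vmn1r148* at 1.87 CPM, against 64.7 CPM for *Vmn1r58*. Rows at such counts enter the test mostly through the libraries where they are higher, so the counts of risen rows in these families are descriptions. The gaps in level to *Olfr613*, *Olfr856-ps1* and *Vmn1r58* follow from the choice of those rows.

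*Gm12238* was compared with other snoRNA rows and with its host gene. Of 114 other snoRNA rows, 35 were tested in AGO2-IP, with 1 higher and 3 lower in miR-379KO and a median log2 fold change of −0.06, and 14 had a higher AGO2-IP CPM than *Gm12238*. *G3bp1* held 151 and 213 counts in the WT AGO2-IP libraries, against 122 and 116 counts for miR-379KO, fewer than the snoRNA in its intron in 3 of the 4 libraries, and 3080 to 4613 counts in total RNA. Its log2 fold change in AGO2-IP was −0.43 ± 0.24 (adjusted p = 0.182 in edgeR). Leaving out WT AGO2-IP A, the library with 468 counts of *Gm12238*, moved that row to 0.87 (adjusted p = 0.0463 in edgeR), and leaving out WT AGO2-IP B moved it to −0.07, so its value rested on single WT libraries.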

How the data were processed

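Alignment by the authors was to mm10, with TopHat. Gene counting used htseq-count on RefSeq genes in its reverse-stranded setting, without poorly placed reads. The paper states the same approach for AGO2-IP, which it calls small RNA sequencing. Whether that setting suits the AGO2-IP libraries was not resolved, so the strand of the AGO2-IP reads counted on a row is not known. The paper describes paired-end reads for AGO2-IP and single-end or paired-end reads for RNA sequencing, so read type may differ between the assays. The labels also name Bowtie2 2.1.0.1 and HTSeq 0.6.0. The authors deposited 1 file of raw counts per library. Summary rows (reads outside genes, not unique, ambiguous) made up 19.8% to 88.9% of listed reads and were kept out of library sizes and tests.

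Rows that passed filterByExpr (minimum count 10) were scaled by trimmed mean of M values (TMM) and tested with edgeR 4.0.16 (quasi-likelihood, Benjamini-Hochberg adjusted p under 0.05), after the script was checked on simulated data. DESeq2 1.42.0 was an alternative. Row names were matched to RefSeq on GRCm38.p6, the build named mm10, by symbol (23602) or synonym (721), and 316 were unmatched. Exons were compared with blastn 2.17.0. The authors' gene models may differ from these. Genes named were the 10 rows, *Rn45s* and *Lars2*, the 5 nearest rows outside, overlapping genes, matched small RNAs and up to 3 of the highest rows per gene list. Rows and lists were chosen with earlier results of these data known.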

Additional observations from a re-analysis of the deposited data

Results flagged for a closer look

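Both miR-379KO libraries lay above both WT libraries in AGO2-IP and below both in total RNA, by CPM, for 5 of the 10 rows and for 9.25% of the 13505 rows tested in AGO2-IP, of which 71.6% met the AGO2-IP condition alone. The fitted difference between the AGO2-IP and total RNA changes was 2.18 for *Zfp488*, 2.12 for *Dcdc2c*, 1.93 for *A130077B15Rik*, 1.82 for *Vmn1r58* and 1.57 for *Gm12238* on the log2 scale. None passed the interaction test (lowest adjusted p of the 5 = 0.228 in edgeR), and no total RNA change passed on its own. *Gm12238* rests on 0 to 2 counts per total RNA library, with 1 count in the nearest library of each genotype. With 2 libraries per group, no library could be checked as an outlier within its group.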

How the results depend on the processing

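For the 9 called rows, all 108 values over 12 settings kept their direction and an adjusted p under 0.05 (log2 fold change 0.98 to 2.22, adjusted p at most 0.0443). The number of rows called was 9 in each setting except without WT AGO2-IP A, where *Gm12238* made it 10. Among all rows, 4158 were called (2884 higher, 1274 lower), against 838 with DESeq2 (524 and 314), 274 at a mean of at least 50 counts, 688 with all 8 libraries in one fit, and 918 to 3331 when each replicate was left out, with 918 without miR-379KO AGO2-IP B and 2359 without WT AGO2-IP B. TMM factors from rows with total RNA counts gave 3573 higher and 403 lower and moved the median of all rows to 0.23 and that of the 10 rows to 1.91. Without the filter on low counts there were 2784 higher and 2366 lower. The cause of these differences was not tested.

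*Gm12238* ranged from −0.065 (without WT AGO2-IP B) to 0.87 (without WT AGO2-IP A) in AGO2-IP when each replicate was left out. In total RNA, where nothing was called, *Olfr613* was at 0.043 with all 8 libraries in one fit, and from −0.46 (without WT total RNA B) to 0.50 (without WT total RNA A) with each replicate left out, 0.12 without miR-379KO total RNA B among them. *Olfr856-ps1* ranged from −0.51 (without WT total RNA B) to 0.20 (without WT total RNA A). Of the 10 rows, 4 matched a small or structural RNA, 0 at 95% identity over 50 bases and 9 at 80% over 30 bases. Over 23066 rows, in the search stricter for short matches, the shares were 15.5%, 0.975% and 20.8%. Matches of the 10 rows at 80% included snoRNAs.

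With the replicate letter as a replicate block, 3853 rows were called (2734 higher, 1119 lower), 9 of the 10 rows among them, with a median of 1.67. Samples of the same letter did not deviate together (r = 0.02 in AGO2-IP, −0.04 in total RNA), so the letters were not taken as pairs.

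With 2 libraries per group, counts of 0 to 96 in total RNA and no read positions, small total RNA changes and the place of reads within exons were not resolved.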
